A study of Homo sapiens with 15 samples.

Results

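Immune checkpoint and recognition ligands are surface proteins by which a cell is read by T cells, natural killer cells and macrophages. They are described here through 10 genes, CD274, PDCD1LG2, CD276, NECTIN2, PVR, CD47, CD58, ICAM1, MICA and MICB, which were found in the table of counts by their Entrez gene numbers. These genes were chosen with earlier results of these data known. All 10 were among the 28395 genes of the table, and all 10 passed the filter on low counts that left 16740 genes to test. The cells were BEAS-2B, an established human line derived from bronchial epithelium, grown in serum-containing medium with Plasmocin, an antimicrobial that control cells received too. Exposed cells received polyethylene terephthalate nanoplastics (PET-NPLs), made from water bottles, at 50 µg/mL, in medium renewed every few days. RNA was sequenced after 24 h (2 control and 2 exposed samples), 15 weeks (2 and 2) and 30 weeks (3 and 4), each time beside unexposed control cells of matched passage. By the labels, batch 1 holds all samples of 24 h and 15 weeks, and batch 2 all those of 30 weeks.

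As background, T cells and natural killer cells add up activating and inhibitory contacts with a target cell. CD274 (PD-L1) and PDCD1LG2 (PD-L2) engage the inhibitory receptor PD-1 on T cells, and CD276 (B7-H3) is a related B7 family protein that is often abundant on tumour cells. PVR (CD155) and NECTIN2 (CD112) are nectin-type adhesion proteins that bind the activating receptor DNAM-1 and the inhibitory receptor TIGIT. ICAM1 binds the leukocyte integrin LFA-1, and CD58 binds CD2, so both hold a lymphocyte to its target. CD47 binds SIRPα on macrophages and restrains phagocytosis. MICA and MICB are stress-associated ligands of the activating receptor NKG2D. In airway epithelium ICAM1 is known as an inflammation-responsive adhesion protein, and CD274 as an interferon-responsive one.

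The stretch of 250 bases upstream of the transcription start is shown for 4 genes, ICAM1 and CD274 because they moved in opposite directions at 30 weeks, and MICA and MICB because they are neighbouring relatives that differed in size of change. Sequences are from RefSeq on GRCh38.p14, each on the plus strand and read 5′ to 3′, with the matches to the motifs searched in capitals. They lie at chr19:10270870-10271119 (ICAM1), chr9:5450292-5450541 (CD274), chr6:31403345-31403594 (MICA) and chr6:31497895-31498144 (MICB), just upstream of the start that the RefSeq promoter table uses.
ICAM1: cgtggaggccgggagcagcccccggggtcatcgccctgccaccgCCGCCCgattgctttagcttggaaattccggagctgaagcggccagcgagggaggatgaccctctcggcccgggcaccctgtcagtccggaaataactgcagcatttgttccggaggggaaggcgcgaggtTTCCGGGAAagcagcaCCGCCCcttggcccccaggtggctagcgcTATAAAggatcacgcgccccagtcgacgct
CD274: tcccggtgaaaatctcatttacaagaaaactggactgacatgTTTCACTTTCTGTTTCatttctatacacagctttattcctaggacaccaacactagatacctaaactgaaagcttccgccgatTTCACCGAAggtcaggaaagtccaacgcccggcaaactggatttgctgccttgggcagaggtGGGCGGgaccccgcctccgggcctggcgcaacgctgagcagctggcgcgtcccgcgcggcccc
MICA: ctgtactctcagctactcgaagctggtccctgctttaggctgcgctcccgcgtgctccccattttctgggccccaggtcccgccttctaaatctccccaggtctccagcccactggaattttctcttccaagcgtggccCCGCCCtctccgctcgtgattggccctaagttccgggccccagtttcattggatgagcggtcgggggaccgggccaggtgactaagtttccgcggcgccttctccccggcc
MICB: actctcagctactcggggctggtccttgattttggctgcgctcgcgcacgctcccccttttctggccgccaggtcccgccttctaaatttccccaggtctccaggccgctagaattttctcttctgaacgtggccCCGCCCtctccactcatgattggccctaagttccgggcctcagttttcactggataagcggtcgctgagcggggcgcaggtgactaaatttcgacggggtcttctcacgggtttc

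The motifs were searched on both strands as plain letters in the 250 bases upstream of the start, over 35116 RefSeq promoters, 9 of the 10 genes included. PDCD1LG2 had no entry. The core of the interferon-stimulated response element was found in CD274 only, as overlapping matches from 208 to 199 and from 202 to 193 bases upstream, and it occurs in 3.02% of all promoters. The interferon gamma-activated site (TTCNNNGAA, in 6.57% of promoters) was found in CD274 from 125 to 117 bases upstream and in ICAM1 from 75 to 67 bases upstream. ICAM1 alone of the 9 held TATAAA, from 30 to 25 bases upstream, a string found in 10.7% of promoters. The GC box (GGGCGG, in 42.6% of promoters) was in 8 of the 9, all but PVR. The letters of the NF-kB motif (in 1.73% of promoters), the AP-1 motif (TGANTCA, in 6.57%) and the heat shock element (in 0.441%) were in none of the 9 windows, which says only that these exact letters are not there. Sites spelled otherwise than the searched pattern were not counted, in ICAM1 or any other window. MICA and MICB were identical at 210 of 254 aligned columns (82.7%), whereas ICAM1 and CD274 were identical at 46.0% of theirs.

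Several of the genes are neighbours. On GRCh38.p14 CD274 (chr9:5450542-5470554) and PDCD1LG2 (chr9:5510531-5571282) are 39976 bases apart, MICA (chr6:31400711-31415315) and MICB (chr6:31494918-31511124) are 79602 bases apart, and PVR (chr19:44643910-44666162) and NECTIN2 (chr19:44846297-44889223) are 180134 bases apart. ICAM1 lies elsewhere on chromosome 19 (chr19:10271120-10286615). MICA and MICB shared none of the 4290 stretches of 150 bases in the MICA exons and 45 of 4038 stretches of 50 bases. The counting strand is not given in the sources used here, and 23.6% of the annotated ICAM1 exon bases also belong to the opposite-strand gene ICAM4-AS1. Reads of the 2 genes were told apart there only if counting used the strand, which is not known. A transcript of unknown coding status covers 19.4% of the PVR exon bases on the same strand.

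The libraries held 23143202 to 31459990 gene counts each, and the 10 genes had from 63 counts (ICAM1) to 4504 counts (CD47) in a sample. Levels are given as CPM, counts scaled to library size, with TMM factors applied. At 30 weeks 6 abundant small noncoding RNAs took 22.30% to 31.03% of the counts in controls and 17.04% to 21.46% in exposed cells, against 9.75% to 12.9% earlier. Exposed replicate 2 at 30 weeks stood apart from the other 3, with a chi-square per gene of 89.7 to 138 against them and of 16.6 to 36.8 among them. The controls at 30 weeks differed from each other by 77.9 to 109. The 30-week values of the 10 genes, and the list counts that differ, are also given without exposed replicate 2. Among 10 leukocyte markers, CD3E, MS4A1 and FCGR3A had 0 counts in every sample. The summed level was 98.8 to 109 CPM in controls and 78.8 to 105 CPM in exposed cells at 30 weeks, most of it NCAM1 and CD68. CD68 was lower in exposed cells (means of 28.1 and 14.5 CPM; edgeR, adjusted p = 0.000197). CD14 was higher (1.48 and 4.91 CPM; edgeR, adjusted p = 3.01e-05), and NCAM1 was not called. Of 10 bronchial epithelial markers, KRT5 and NKX2-1 were at 0 at 15 and 30 weeks and EPCAM reached at most 24 counts in any sample, while KRT8, KRT18 and KRT19 were upregulated at 30 weeks. The summed epithelial level at 30 weeks was 316 to 412 CPM in controls and 880.5 to 1099 CPM in exposed cells, and the summed level of 12 skeletal muscle markers was 255 to 299 CPM and 46.3 to 57.1 CPM. At 15 weeks the epithelial sum had been 826 to 1037 CPM and the muscle sum 95.2 to 116 CPM. At 24 h they were 1988 to 2299 CPM and 121 to 153 CPM. TTN alone had means of 47.9 CPM in controls and 47.1 CPM in exposed cells at 30 weeks, after 98.0 CPM at 15 weeks. MYOD1, JSRP1 and CHRNA1 had control means of 85.3, 76.0 and 47.7 CPM at 30 weeks and exposed means of 0.462, 0.123 and 0.131 CPM. Their 15-week means were 2.67, 0.151 and 0.134 CPM. Of 8 muscle markers tested, 6 were called lower in exposed cells at 30 weeks and none higher, against 11.7% of all genes called as lower. The summed level of 10 fibroblast or mesenchymal markers was 1949 to 2479 CPM in controls and 1609 to 1831 CPM in exposed cells at 30 weeks, without overlap. It had been 1327 to 1407 CPM at 15 weeks and 1609 to 1750 CPM at 24 h. Most of the sum was VIM, with means of 1604 and 1288 CPM at 30 weeks, and THY1, with 388 and 317 CPM. Neither was called (edgeR, adjusted p = 0.0800 and 0.0730). COL1A1 and LUM were called lower in exposed cells and COL1A2 higher. The part of these differences in the results below was not tested. In bulk RNA, fewer cells that carry a transcript and less of it per cell cannot be told apart.

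Compared per kilobase of exon, the genes spanned a wide range of levels. In controls at 30 weeks CD47 (17.2 CPM per kb) and NECTIN2 (16.8 CPM per kb) were the highest, followed by MICA (12.5), MICB (10.9), CD58 (8.42), CD276 (7.14) and PVR (6.34) on the same scale. CD274 (2.55 CPM per kb), PDCD1LG2 (1.80 CPM per kb) and ICAM1 (1.53 CPM per kb) were the lowest. In exposed cells at 30 weeks ICAM1 stood at 6.68 CPM per kb, above CD274 at 1.66 and PDCD1LG2 at 2.27, and MICB at 17.4 CPM per kb stood next to CD47 at 17.5.

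**Figure D1:**
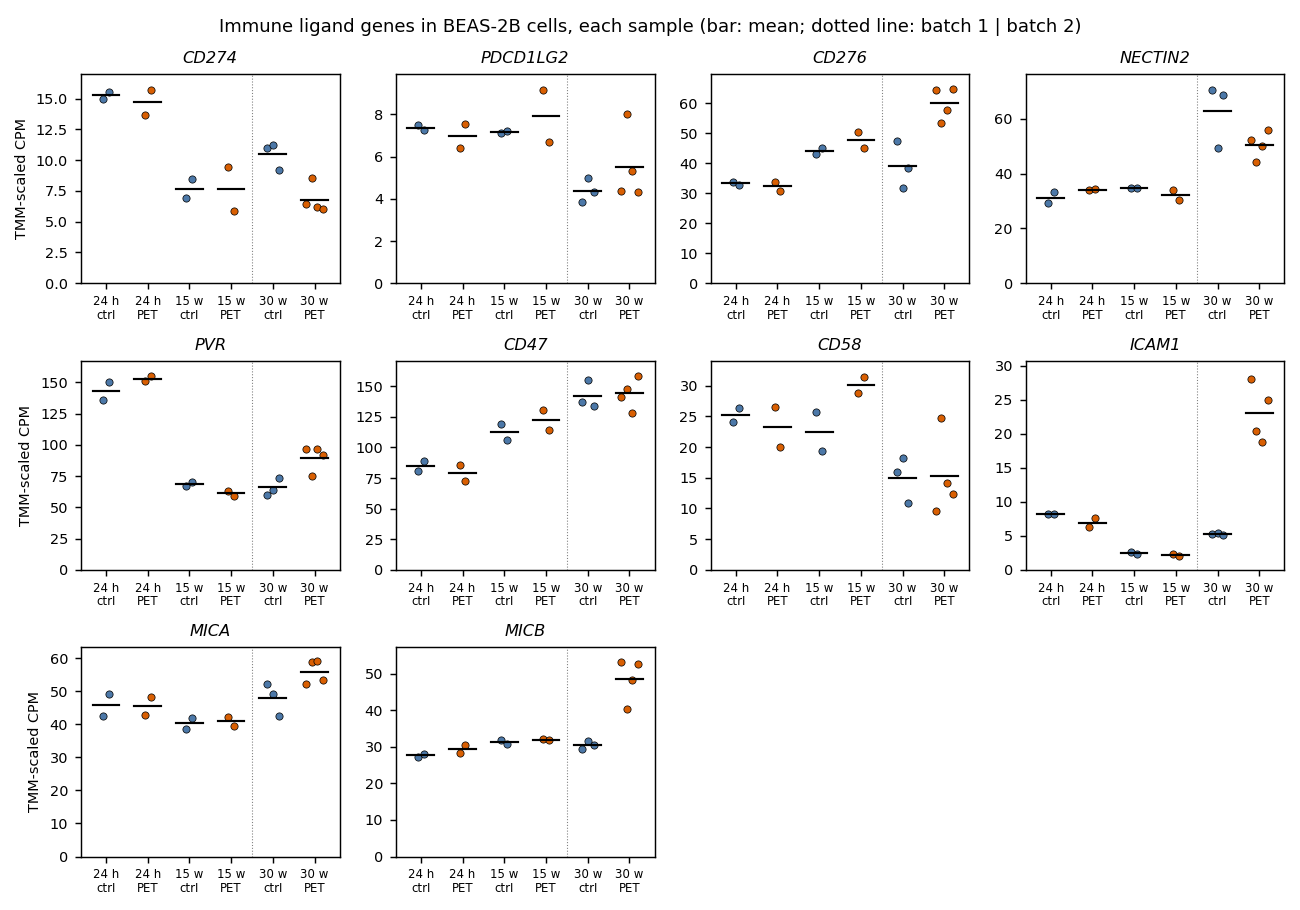
Level of each ligand gene in every sample (vertical axis, TMM-scaled CPM from 0) in control (blue) and exposed (orange) cells at 24 h, 15 weeks and 30 weeks, with the mean as a bar and the batch boundary dotted. The 4 exposed samples at 30 weeks sit between 18.9 and 28.0 CPM for ICAM1, above every other sample, and between 40.3 and 53.2 CPM for MICB.

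At 24 h and at 15 weeks no ligand gene was called as different between exposed and control cells. None of the 10 passed an adjusted p of 0.05 at either time (edgeR's quasi-likelihood test with Benjamini-Hochberg adjustment over all genes tested), and none had an unadjusted p under 0.05. Over all genes the test called 0% at 24 h and 0% at 15 weeks, with 277 and 823 genes at an unadjusted p under 0.05. This fit estimates the spread of each gene over the samples of all times together. With each time point fitted alone, 0 genes were called at 24 h and 304 of 15484 at 15 weeks, none of the 10 among them. The fitted log2 fold changes of the 10 ran from -0.24 (ICAM1) to 0.13 (NECTIN2) at 24 h. At 15 weeks they ran from -0.16 (PVR) to 0.42 (CD58). The 95% intervals show what these small groups leave possible. For ICAM1 they reached from -0.66 to 0.18 at 24 h and from -0.61 to 0.33 at 15 weeks, and for CD274 from -0.53 to 0.42 and from -0.49 to 0.49.

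At 30 weeks 5 of the 10 ligand genes changed, 4 of them upregulated (ICAM1, MICB, CD276 and PVR) and 1 downregulated (CD274). Over all genes the same test called 23.7%, 12.0% as higher and 11.7% as lower in exposed cells. With the 30-week samples fitted alone, 2370 of 15519 genes were called, with CD274, CD276, ICAM1 and MICB of the 10 among them. The median log2 fold change of the 10 was 0.28, and that of all genes tested was 0.00775. Exposed and control samples did not overlap in 6 of the 10, the 5 named and MICA, against 27.3% of all genes. The same 5 were called without exposed replicate 2, with a median of 0.14 over the 10, while without control replicate 1 at 30 weeks 3 were called (CD276, ICAM1 and MICB) and CD274 and PVR were not.

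**Figure D2:**
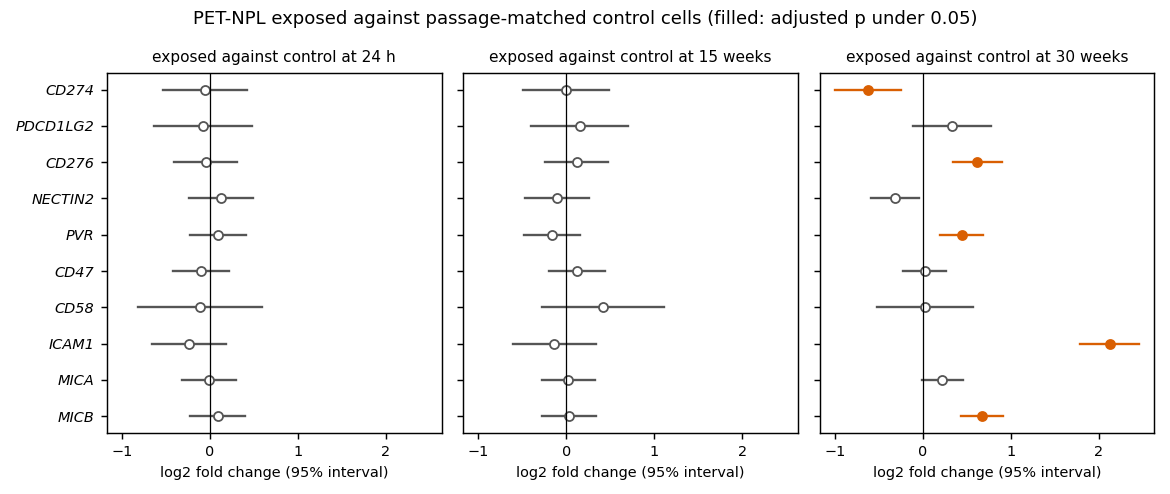
Fitted log2 fold change of exposed against control cells (horizontal axis) with its 95% interval for each ligand gene at 24 h, 15 weeks and 30 weeks, filled where the edgeR adjusted p is under 0.05. All intervals at 24 h and 15 weeks include 0, and at 30 weeks ICAM1 stands at 2.12 and CD274 at -0.62.

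ICAM1, the LFA-1 ligand whose promoter is printed above, had the largest change of the 10. Its level was 5.29, 5.42 and 5.15 CPM in the controls at 30 weeks and 28.0, 20.4, 18.9 and 24.9 CPM in exposed cells. The lowest exposed sample was thus above the highest control by a wide margin, and above every sample of the earlier times. The means were 5.29 ± 0.131 CPM (SD, n = 3) and 23.0 ± 4.20 CPM (SD, n = 4). Exposed cells differed from controls by a log2 fold change of 2.12 (SE 0.158, 95% interval 1.79 to 2.46), a 4.36-fold higher level (edgeR, adjusted p = 8.71e-08), and it was 2.18 without exposed replicate 2. ICAM4 and ICAM5, which lie beside it, were at 0 to 6 and at 38 to 70 counts per sample at 30 weeks.

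CD58, the CD2 ligand, showed no such difference. The controls had 15.95, 18.3 and 10.8 CPM and the exposed cells 9.63, 24.8, 14.1 and 12.4 CPM, so the groups overlapped, and exposed replicate 2 was the highest. For CD58 the log2 fold change was 0.02, with a 95% interval from -0.52 to 0.57 (edgeR, adjusted p = 0.965). Without exposed replicate 2 it was -0.32, a change of direction that did not pass the test (edgeR, adjusted p = 0.192).

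CD274 was the only one of the 10 that was downregulated. Its level was 10.97, 11.3 and 9.23 CPM in controls and 6.45, 8.59, 6.15 and 6.02 CPM in exposed cells. All exposed samples were below all controls, with replicate 2 nearest to them. The means were 10.5 ± 1.10 CPM (SD, n = 3) and 6.80 ± 1.203 CPM (SD, n = 4). This is a log2 fold change of -0.62 (SE 0.175, 95% interval -0.996 to -0.252), or a level 35.1% lower (edgeR, adjusted p = 0.0170). It was -0.76 without exposed replicate 2 (edgeR, adjusted p = 0.00162) and -0.58 without control replicate 1 (edgeR, adjusted p = 0.0671). It also missed the threshold without control replicate 2 (edgeR, adjusted p = 0.0567). The exposed samples of 30 weeks lay within the 5.84 to 9.46 CPM of all 15-week samples. The 30-week controls lay above the 6.89 to 8.44 CPM of the 15-week controls. Both groups were below the 13.7 to 15.7 CPM of 24 h.

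PDCD1LG2, the neighbouring gene for the other PD-1 ligand, did not follow it. Controls had 3.83, 4.98 and 4.33 CPM and exposed cells 4.38, 8.02, 5.32 and 4.33 CPM. The groups overlapped, and the highest value was again in exposed replicate 2. Its log2 fold change was 0.33 (SE 0.210, 95% interval -0.11 to 0.77), which did not pass the test (edgeR, adjusted p = 0.281), and it was 0.09 without that replicate.

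CD276, the B7 family ligand, was upregulated. Controls had 47.3, 31.7 and 38.4 CPM and exposed cells 64.4, 53.5, 57.7 and 64.7 CPM. No exposed sample fell into the range of the controls, which were themselves spread out. The log2 fold change was 0.62 (SE 0.130, 95% interval 0.34 to 0.90), a 1.54-fold higher level (edgeR, adjusted p = 0.00259), and it was 0.67 without exposed replicate 2.

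Of the DNAM-1 and TIGIT ligands, PVR was upregulated and NECTIN2 was not called. PVR stood at 60.3, 64.2 and 73.9 CPM in controls and at 96.6, 74.8, 96.5 and 91.6 CPM in exposed cells. The lowest exposed sample, replicate 2, was just above the highest control, and the other 3 were well above it. For PVR the log2 fold change was 0.44 (SE 0.117, 95% interval 0.20 to 0.69; edgeR, adjusted p = 0.0118). It was 0.52 without exposed replicate 2, and it missed the threshold without control replicate 1 (edgeR, adjusted p = 0.0531) and with the 30-week samples fitted alone (edgeR, adjusted p = 0.0769). NECTIN2 stood at 70.7, 49.5 and 68.7 CPM in controls and at 52.2, 44.2, 50.0 and 56.1 CPM in exposed cells. Control replicate 2 lay among the exposed samples, so the groups overlapped. For NECTIN2 the log2 fold change was -0.31 (SE 0.129, 95% interval -0.59 to -0.04), with an unadjusted p under 0.05 and an adjusted p above it (edgeR, adjusted p = 0.0911). Without control replicate 2 it was -0.46 and was called (edgeR, adjusted p = 0.0130), and without exposed replicate 2 it was -0.25 (edgeR, adjusted p = 0.113).

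CD47, the inhibitor of phagocytosis and per kilobase among the highest of the 10, was at 137, 155 and 134 CPM in controls and at 141, 148, 128 and 159 CPM in exposed cells. The samples of both groups were interleaved. The log2 fold change was 0.02, and its 95% interval from -0.22 to 0.26 bounds the difference (edgeR, adjusted p = 0.922), and without exposed replicate 2 it was 0.0076 (edgeR, adjusted p = 0.969).

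The NKG2D ligands MICB and MICA differed in size of change. MICB stood at 29.5, 31.7 and 30.4 CPM in controls and at 53.2, 40.3, 48.4 and 52.6 CPM in exposed cells. Every exposed sample was above every control and above every sample of 24 h and 15 weeks, with replicate 2 the lowest of the 4. The log2 fold change was 0.67 (SE 0.112, 95% interval 0.43 to 0.91), a 1.59-fold higher level (edgeR, adjusted p = 0.000376), and it was 0.75 without exposed replicate 2. MICA stood at 52.29, 49.1 and 42.5 CPM in controls and at 52.30, 58.9, 59.3 and 53.3 CPM in exposed cells. The groups did not overlap, but the lowest exposed sample and the highest control were almost equal. The log2 fold change was 0.22 (SE 0.110, 95% interval -0.01 to 0.46), which did not pass the test (edgeR, adjusted p = 0.159), and was 0.20 without exposed replicate 2 (edgeR, adjusted p = 0.170).

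Ratios of raw counts within a library do not depend on how libraries are scaled. ICAM1 had 0.481 to 0.558 counts per CD274 count in the controls at 30 weeks and 2.37 to 4.35 in exposed cells, so the order of the 2 genes was inverted in all 4 exposed samples. The same ratio was between 0.252 and 0.549 in all samples of 24 h and 15 weeks. MICB per MICA was 0.563 to 0.715 in controls and 0.683 to 1.02 in exposed cells at 30 weeks, which overlapped, after 0.571 to 0.662 at 24 h and 0.732 to 0.827 at 15 weeks. PVR per NECTIN2 was 0.853 to 1.298 in controls and 1.63 to 1.93 in exposed cells at 30 weeks, without overlap. It had been 4.45 to 4.66 at 24 h and 1.86 to 2.03 at 15 weeks. CD274 per PDCD1LG2 was 2.13 to 2.87 in controls and 1.07 to 1.47 in exposed cells at 30 weeks, again without overlap. It had been 2.00 to 2.14 at 24 h and 0.870 to 1.17 at 15 weeks, the latter below all controls of 30 weeks.

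**Figure D3:**
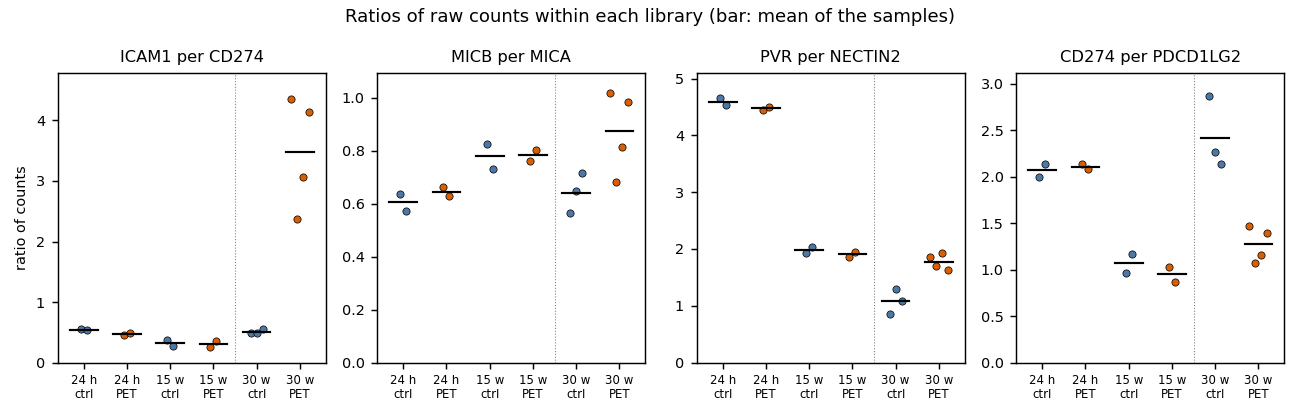
Ratio of the raw counts of 2 ligand genes within each library (vertical axis from 0, no unit) by condition, with the mean as a bar and the batch boundary dotted. ICAM1 per CD274 lies between 2.37 and 4.35 in the 4 exposed samples at 30 weeks and at or below 0.558 in all others.

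Whether the change with exposure differed between 15 and 30 weeks was tested as the difference of the changes. ICAM1 was the only ligand gene that passed, with a difference of 2.26 on the log2 scale (SE 0.271, 95% interval 1.69 to 2.84; edgeR, adjusted p = 0.000101), and 4.74% of all genes passed. MICB (0.64, adjusted p = 0.0574), PVR (0.60, adjusted p = 0.0951), CD276 (0.50, adjusted p = 0.255) and CD274 (-0.62, adjusted p = 0.318) had an unadjusted p under 0.05 but missed the threshold in edgeR. Without exposed replicate 2 at 30 weeks 3 passed, PVR and MICB with ICAM1. These times lie in separate batches, though each change was measured within its own.

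The level of several ligand genes also moved with time in culture. From 24 h to 15 weeks, within batch 1, 3 of the 10 were downregulated in control cells (24.9% of all genes were called), with log2 fold changes of -1.75 (ICAM1), -1.06 (PVR) and -0.99 (CD274). In exposed cells 5 changed (26.0% of all genes), with ICAM1 (-1.65), PVR (-1.32) and CD274 (-0.94) lower and CD47 (0.63) and CD276 (0.57) higher. ICAM1 thus went from 8.21 and 8.26 CPM to 2.56 and 2.33 CPM in controls, and from 6.29 and 7.62 CPM to 2.39 and 2.04 CPM in exposed cells. PVR went from 136 and 151 CPM to 66.8 and 70.5 CPM in controls and from 151 and 155 CPM to 63.5 and 59.3 CPM in exposed cells. In neither gene did the 2 times overlap in either arm. CD274 went from 15.0 and 15.6 CPM to 6.89 and 8.44 CPM in controls and from 13.7 and 15.7 CPM to 9.46 and 5.84 CPM in exposed cells, and this call was lost without the lower sample in either arm at 15 weeks (edgeR, adjusted p = 0.0610 in controls without replicate 1 and 0.112 in exposed cells without replicate 2), and in exposed cells also without replicate 2 of 24 h (edgeR, adjusted p = 0.0593). The call of CD276 in exposed cells was lost without any of the 4 samples compared (edgeR, adjusted p of 0.0517 to 0.152), and that of CD47 without replicate 2 of 24 h or replicate 1 of 15 weeks (edgeR, adjusted p = 0.0846 and 0.0711).

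From 15 to 30 weeks, where time and batch cannot be told apart, 3 of the 10 changed in controls (50.3% of all genes) and 6 in exposed cells (46.0% of all genes). ICAM1 was higher at 30 weeks by 1.11 in controls and by 3.37 in exposed cells on the log2 scale. NECTIN2 was higher by 0.86 and 0.65. PDCD1LG2 fell by 0.71 in controls, a call lost without any of 3 libraries, control replicates 1 and 2 at 15 weeks and 1 at 30 weeks (edgeR, adjusted p of 0.0729 to 0.0926). In exposed cells MICB (0.60), PVR (0.55) and MICA (0.45) were also higher and CD58 (-0.98) lower. Of these 6 calls, only ICAM1 and MICB were kept without exposed replicate 2 at 15 weeks. CD274 was called in neither arm, at 0.45 in controls (edgeR, adjusted p = 0.0867) and -0.17 in exposed cells (edgeR, adjusted p = 0.510). Since the comparisons of times share samples with the comparisons of exposed with control cells, their changes are set side by side here without a test of likeness.

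Ordered by mean level over the 6 conditions, ICAM1 spanned the widest range, 10.4-fold from exposed cells at 30 weeks (23.0 CPM) to exposed cells at 15 weeks (2.22 CPM). Its order was exposed at 30 weeks, control at 24 h, exposed at 24 h, control at 30 weeks, control at 15 weeks and exposed at 15 weeks, and only the last 2 overlapped. PVR spanned 2.49-fold, from exposed cells at 24 h (153 CPM) down to exposed cells at 15 weeks (61.4 CPM), and only the controls at 30 weeks overlapped with their neighbours in the order, the controls and the exposed cells of 15 weeks. CD274 spanned 2.25-fold, highest in the controls at 24 h (15.3 CPM), which overlapped with the exposed cells of that time, and lowest in exposed cells at 30 weeks (6.80 CPM), which overlapped with those of 15 weeks. The other 7 spanned 1.39-fold (MICA) to 2.01-fold (NECTIN2). MICB was highest in exposed cells at 30 weeks and lay between 27.2 and 32.1 CPM in all other samples.

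The other NKG2D ligands were read as a list of related genes. Of 6 tested, 3 rose at 30 weeks (ULBP1, ULBP2 and ULBP3) and none fell, against 12.0% of all genes called as higher, and the median log2 fold change was 0.79. At 24 h and 15 weeks none of the 6 was called. ULBP1 had 5, 21 and 14 counts in the controls at 30 weeks and 79, 59, 72 and 98 counts in exposed ones, and its fold change was 2.43 on the log2 scale (SE 0.358; edgeR, adjusted p = 0.000125). At 15 weeks ULBP1 had 27 to 70 counts, more than in any control at 30 weeks, and at 24 h it had 8 to 18 counts. ULBP2 ranged from 13.9 to 16.3 CPM in controls and from 22.0 to 31.7 CPM after exposure, with a log2 fold change of 0.81 (SE 0.183; edgeR, adjusted p = 0.00446). ULBP3 ranged from 3.01 to 4.34 CPM and from 5.26 to 6.77 CPM, a log2 fold change of 0.76 (SE 0.191; edgeR, adjusted p = 0.00875), and its exposed samples lay within the 3.73 to 6.90 CPM of the 15-week samples. RAET1L, at 7 to 17 counts in controls and 17 to 42 in exposed cells, did not pass (edgeR, adjusted p = 0.0661), and RAET1E and RAET1G had log2 fold changes of -0.03 and -0.10. The same 3 calls were made without exposed replicate 2 and without control replicate 1.

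**Figure D4:**
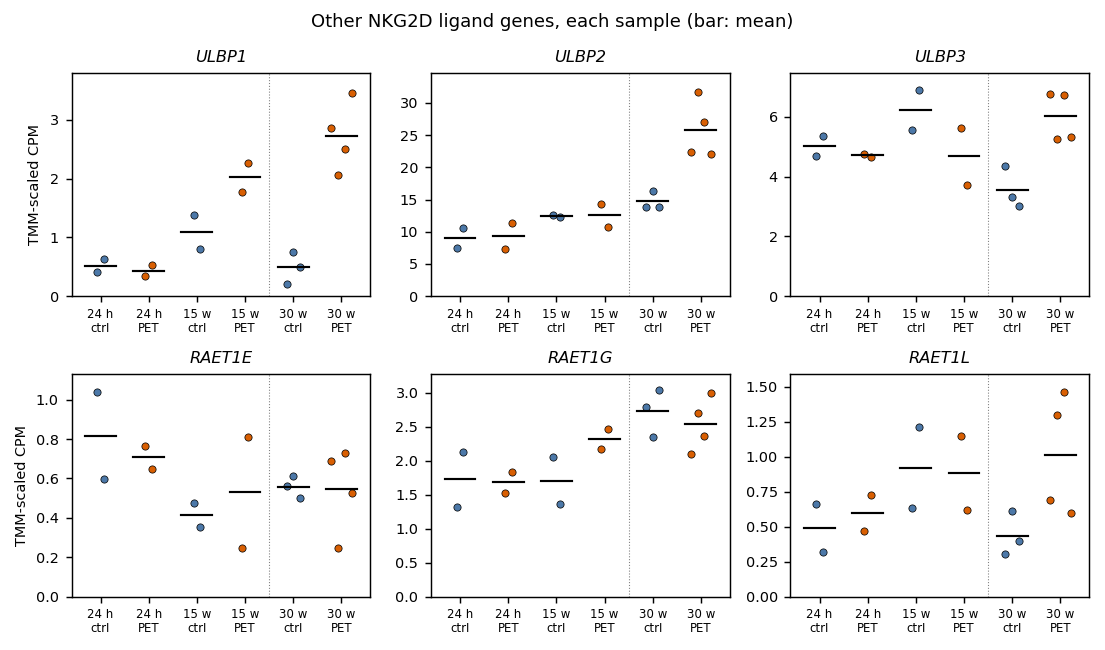
Level of the 6 other NKG2D ligand genes in every sample (vertical axes, TMM-scaled CPM from 0) by condition, with the mean as a bar and the batch boundary dotted. ULBP1, ULBP2 and ULBP3 lie higher in the 4 exposed samples at 30 weeks than in the 3 controls, while RAET1E and RAET1G overlap.

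Among other T cell co-signalling ligands 14 of 21 could be tested, and 5 rose and 1 fell at 30 weeks, against 23.7% of all genes called, with a list median of 0.14. CD40, a TNF receptor family member that T cells engage through CD40L, had at most 5 counts in a control and up to 32 in exposed cells (log2 fold change 2.47, SE 0.440; edgeR, adjusted p = 0.000679). It had 11 to 27 counts at 15 weeks and 124 to 160 counts at 24 h. ICOSLG, the ligand of the costimulatory receptor ICOS, was higher by 1.51 (SE 0.258; edgeR, adjusted p = 0.000466), and TNFSF9 (4-1BBL) by 0.88 (SE 0.183; edgeR, adjusted p = 0.00246). TNFSF9 in exposed cells, at 13.9 to 17.1 CPM, lay within the 11.8 to 18.5 CPM of 24 h. VSIR (VISTA), an inhibitory member of the B7 family, fell by 1.23 on the log2 scale (edgeR, adjusted p = 2.82e-05), from a control mean of 58.9 ± 6.12 CPM (SD, n = 3) to an exposed mean of 25.1 ± 3.91 CPM (SD, n = 4). Its 15-week samples lay between 14.1 and 20.7 CPM and those of 24 h between 16.7 and 26.9 CPM, so the 30-week controls were the high group. CD80, the CD28 and CTLA-4 ligand, was at 16 counts or fewer in every sample, and CD86 at 1 or fewer. Of 3 tested members of the nectin list, NECTIN1 fell by 0.65 on the log2 scale (edgeR, adjusted p = 0.0232), a call lost without control replicate 1 (edgeR, adjusted p = 0.0877).

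Of the other leukocyte adhesion ligands 8 of 11 were tested, and 4 were higher and 2 lower in exposed cells at 30 weeks (4 and 3 without exposed replicate 2, 3 and 2 without control replicate 1). Over all genes 12.0% were called as higher and 11.7% as lower. VCAM1, the ligand of the integrin VLA-4, was at 17.8 ± 2.60 CPM (SD, n = 3) in controls at 30 weeks and reached at most 3 counts in any exposed sample (edgeR, adjusted p = 1.45e-08). VCAM1 had 0 counts in every sample of 24 h and at most 0.885 CPM at 15 weeks, so the controls at 30 weeks were the group that stood apart. JAM2 fell as well, its control mean being 4.06 ± 0.951 CPM (SD, n = 3) and its exposed mean 0.494 ± 0.164 CPM (SD, n = 4) (edgeR, adjusted p = 2.01e-06), while its 15-week samples lay between 0.403 and 0.584 CPM, near the exposed mean. F11R (JAM-A), a junctional protein that also binds LFA-1, was higher by 1.23 (SE 0.114; edgeR, adjusted p = 8.74e-07), ALCAM, the ligand of CD6, by 0.94 (SE 0.160; edgeR, adjusted p = 0.000462), and CD59, a complement inhibitor, by 0.72 (SE 0.172; edgeR, adjusted p = 0.00625). The exposed F11R samples (69.1 to 79.4 CPM) lay above all earlier ones (35.4 to 47.9 CPM). ALCAM was at 147 to 224 CPM in exposed cells and 78.3 to 109 CPM in controls, after 252 to 317 CPM at 15 weeks. At 24 h ALCAM had been at 482 to 534 CPM, so both arms were below every earlier sample. CD59 was at 283 to 500 CPM and 188 to 233 CPM, after 342 to 380 CPM at 15 weeks and 485 to 566 CPM at 24 h. ICAM3 had a log2 fold change of -0.38 that did not pass (edgeR, adjusted p = 0.0948).

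In the list of phagocytosis signals 1 of 6 was called at 30 weeks, against 23.7% of all genes. SLAMF7, a macrophage and lymphocyte receptor, had at most 3 counts in a control and at most 18 in an exposed sample (edgeR, adjusted p = 0.00924). QPCTL, the enzyme that modifies CD47 for binding to SIRPα, had a log2 fold change of -0.34 (edgeR, adjusted p = 0.0747), and calreticulin (CALR), a signal for uptake, one of 0.03. Of 5 tested receptors that immune cells use for these ligands none was called by edgeR, to be set against the same 23.7%. CD226 was at 16 counts or fewer and KLRK1 and CD2 at 0 counts in every sample, while SIRPA had means of 47.8 CPM in controls and 48.0 CPM in exposed cells.

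Most genes of the routes known to induce CD274 and ICAM1 were not called at 30 weeks, as were most of all genes, 23.7% of which were called. Of 13 genes from interferon gamma to CD274, 2 rose, IFNGR2 (0.87, SE 0.133; edgeR, adjusted p = 0.000181) and JAK2 (0.50, SE 0.138; edgeR, adjusted p = 0.0150), none fell, and the list median was -0.01. Without exposed replicate 2 this list had 3 higher and 2 lower and a median of 0.10, and without control replicate 1 it had 1 higher and none lower. IRF1, a transcription factor that acts on interferon response elements such as those printed in capitals above, had a log2 fold change of 0.01. Of 13 genes of the NF-kB route 1 was called, TNFAIP3, a feedback inhibitor, at -1.10 (SE 0.220; edgeR, adjusted p = 0.00181), with RELA at -0.07, NFKB1 at 0.13 and NFKBIA at -0.02. Of 7 genes that act on PD-L1 protein stability, CMTM4 rose by 0.73 (SE 0.160; edgeR, adjusted p = 0.00363), and CMTM6 had a log2 fold change of 0.23 (edgeR, adjusted p = 0.317); without exposed replicate 2 this list had 1 higher and 1 lower. Of 8 genes of ligand shedding, ADAM10, a sheddase of MICA and MICB, was higher by 0.40 (edgeR, adjusted p = 0.0298) and TIMP3, an inhibitor of such enzymes, was lower by 1.39 on the log2 scale (edgeR, adjusted p = 2.14e-05). ADAM10 was at 104 to 140 CPM in exposed cells and 77.6 to 101 CPM in controls, all below the 164 to 194 CPM of 15 weeks. TIMP3 was at 12.2 to 17.5 CPM in exposed cells, near the 12.2 to 18.3 CPM of 15 weeks, and at 30.9 to 44.2 CPM in controls. The calls of JAK2 and ADAM10 were lost without control replicate 1 (edgeR, adjusted p = 0.0759 and 0.136). JAK2 was at 11.8 to 15.4 CPM in exposed cells and 7.70 to 10.1 CPM in controls, all below the 21.8 to 27.2 CPM of 15 weeks. CMTM4 was at 38.0 to 70.1 CPM and 31.0 to 36.5 CPM, after 42.9 to 47.3 CPM at 15 weeks. TNFAIP3 was at 2.75 to 3.44 CPM and 6.06 to 7.41 CPM, after 0.796 to 1.45 CPM at 15 weeks.

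**Figure D5:**
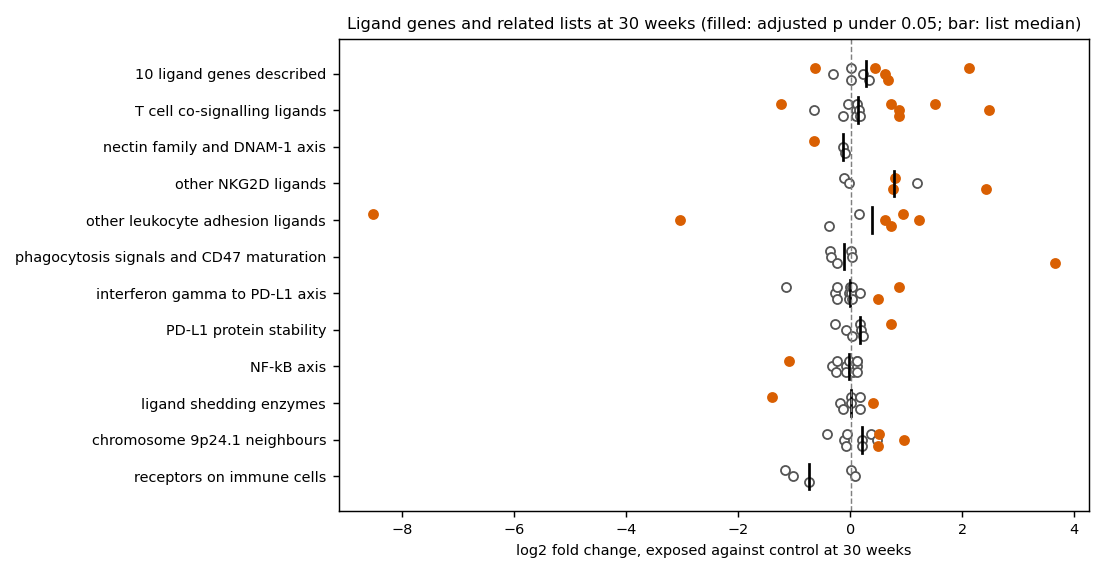
Fitted log2 fold change at 30 weeks (horizontal axis) of every tested gene of the 10 ligands and of each related list, filled where the edgeR adjusted p is under 0.05, with the list median as a bar and the median of all genes dashed. The NKG2D ligand list has a median of 0.79, and the interferon gamma and NF-kB lists have medians of -0.01 and -0.02.

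For each ligand gene the 2 genes most like it were taken by Pearson's correlation of log2 CPM over the 15 samples, among 13448 genes compared. These values describe samples that share conditions, batches and scaling, and carry no test. CD274 was most like ENDOD1 (0.966) and STMN3 (0.954), and PVR most like ITPK1 (0.987) and CDCA4 (0.970). UCK2 (0.949) was among those most like ICAM1. MICB was most like PITRM1 (0.967) and ZFP64 (0.966), MICA most like E2F4 (0.954) and TAGLN2 (0.942), and CD276 most like SCARB1 (0.962) and UAP1L1 (0.937). For NECTIN2 they were USP11 (0.974) and CHST14 (0.969), for CD47 HOTAIRM1 (0.974) and TMEM255A (0.965), for CD58 FGFR1OP2 (0.969) and RAB18 (0.963), and for PDCD1LG2 TDG (0.955) and GPATCH2 (0.952). None of the 10 ligand genes was among the genes most like another of them.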

How the data were processed

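RNA was extracted by the authors from control and exposed BEAS-2B cells, ribosomal RNA was depleted and stranded libraries were sequenced. Reads were cleaned with Rfastp by the authors, aligned to GRCh38 and assigned to genes with Rsubread. The deposited values are raw counts with no normalization, and the setting for strand and for reads that map to several places is not given in the sources used here. Each gene is named by its Entrez number, and 27745 of 28395 had a symbol in the RefSeq table. The labels give replicates but not whether they were separate cultures, so p-values measure the spread between these samples, which may be technical.

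Counts were analysed in R 4.3.3 with edgeR 4.0.16. After filterByExpr with the 6 conditions as groups and TMM scaling, 1 quasi-likelihood model with a mean for each condition was fitted to all 15 samples. Benjamini-Hochberg adjustment of the p-values ran over the 16740 genes tested, with a threshold of 0.05. Standard errors and 95% intervals come from this fit, and a prior count of 2 was added for log2 CPM. Genes at or below 3 counts throughout a group are given by their counts, without a fold. Counting intervals cover counting error only. Exon lengths are unions of GENCODE v44 exons, which may differ from the gene models the authors counted on. The procedure was run on counts simulated with the spread that the same model estimated. Such counts cannot show how it handles a library that stands apart or replicates that are technical.

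All 10 ligand genes are reported whatever their values. From each related list at most the 3 called genes with the largest change in each direction are named, and for each ligand gene the 2 genes most like it at an average of at least 1 CPM. Genes of the lists that were named without being called were chosen after their values were seen. Some items of the lists and of the genes most like a ligand gene are not reported here. The ligand genes and lists were chosen with earlier results of these data known. The alternatives were DESeq2 1.42.0, limma-voom (limma 3.58.1) without and with 2 surrogate variables from sva 3.50.0, each time point alone, the unfiltered table, a minimum of 10 counts per sample, upper-quartile and RLE scaling, leaving out 6 small noncoding RNAs, stricter thresholds (0.01 for the adjusted p, or a minimum fold of 2), a block for the replicate number and each replicate left out. The related lists without exposed replicate 2 and without control replicate 1 at 30 weeks were added after seeing the data.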

Additional observations from a re-analysis of the deposited data

Results flagged for a closer look

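CD274 in exposed cells at 30 weeks was marked by a sample that lay far from the other 3. Exposed replicate 2 had 8.59 CPM and the next highest sample 6.45 CPM, so that the gap was 0.834 of the range of the 4 samples, just above Dixon's 95% critical value. Chance marks about 1 in 20 such groups, and 10 were examined. PDCD1LG2 and CD58 were also highest in that replicate, with ratios of 0.732 and 0.705, and PVR was lowest in it with 0.770, none of them past the critical value.

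ICAM1 was marked because its change with exposure differed between 30 and 15 weeks by 2.26 on the log2 scale in a test of the difference itself (edgeR, adjusted p = 0.000101). The change was 2.12 at 30 weeks and -0.14 at 15 weeks.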

How the results depend on the processing

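At 24 h and 15 weeks 0 ligand genes were called under each alternative, every left-out replicate included. At 30 weeks the count of 5 became 3 at an adjusted p under 0.01, 1 at a fold change of at least 2, and 3 to 5 with each replicate left out. For the change at 30 weeks minus that at 15 weeks the count of 1 became 3 with DESeq2, 5 with surrogate variables, 2 without the small noncoding RNAs, and 1 to 3 with each replicate left out. From 24 h to 15 weeks, the count of 3 in controls became 5 with surrogate variables and 2 to 5 with a replicate left out, and the count of 5 in exposed cells became 2 at a fold change of at least 2 and 2 to 5 with a replicate left out. From 15 to 30 weeks, the count of 3 in controls became 6 with surrogate variables, 1 at a fold change of at least 2 and 2 to 6 with a replicate left out, and the count of 6 in exposed cells became 1 and 2 to 8. Except for stricter thresholds and fewer samples, the cause was not tested.

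CD47 at 30 weeks changed sign to -0.0125 with surrogate variables, -0.00789 with upper-quartile scaling, -0.0295 with the replicate block, and -0.0169 and -0.0212 without control replicate 3 or exposed replicate 4, and it ranged from -0.0212 to 0.0888 with each replicate left out. CD58 changed sign to -0.0312 with limma-voom, -0.0881 with surrogate variables, -0.0133 with upper-quartile scaling, and -0.163 and -0.316 without control replicate 3 or exposed replicate 2, within -0.316 to 0.189 with each replicate left out. Neither gene was called under any of these. Over 25 alternatives ICAM1 at 30 weeks ranged from 2.02 to 2.21, MICB from 0.62 to 0.75 and CD276 from 0.49 to 0.78, and all were called each time. CD274 ranged from -0.76 to -0.56 (adjusted p of 0.00162 to 0.0671). With surrogate variables NECTIN2 (adjusted p = 0.0470, limma) and MICA (adjusted p = 0.0404, limma) were called, and NECTIN2 also without control replicate 2 (adjusted p = 0.0130, edgeR).

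Control and exposed samples share replicate numbers. The deviations of same-numbered samples correlated at -0.06 at 24 h, 0.03 at 15 weeks and -0.12, 0.30 and 0.10 at 30 weeks, so the numbers were not taken to pair the samples. With the replicate block the same 5 genes were called at 30 weeks, CD274 at an adjusted p of 0.0468 (edgeR). The lowest counts (63 for ICAM1, 89 for PDCD1LG2) limit precision most in those genes.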

Other observations

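Near CD274 on the short arm of chromosome 9, 12 of 13 listed genes were in the table and 11 were tested, and 3 were upregulated at 30 weeks, ERMP1 (0.97 on the log2 scale, SE 0.130; edgeR, adjusted p = 4.87e-05), RIC1 (0.51, SE 0.124; edgeR, adjusted p = 0.00709) and JAK2 (0.50, SE 0.138; edgeR, adjusted p = 0.0150), while none was downregulated. This share is near the 23.7% of all genes called, and it became 3 higher and 1 lower without exposed replicate 2 and 2 higher without control replicate 1. RIC1 and ERMP1 lie close to PDCD1LG2, and the list median was 0.21, against -0.62 for CD274. RIC1 was at 44.2 to 51.9 CPM in exposed cells and 27.4 to 39.7 CPM in controls, all below the 61.0 to 84.8 CPM of 15 weeks.

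Among the 10 ligand genes, log2 CPM over the 15 samples was most alike for CD276 and MICB (Pearson's r of 0.84) and for ICAM1 and MICA (0.83), and least alike for PDCD1LG2 and NECTIN2 (-0.87) and for CD274 and CD276 (-0.83). The neighbouring pairs had r of 0.30 for CD274 and PDCD1LG2, 0.64 for MICA and MICB, and -0.35 for PVR and NECTIN2. The samples share conditions and batches, so these values are a description.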
